A study of Mus musculus with 12 samples.

Results

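The heat shock and J-domain chaperones were followed across 12 messenger RNA libraries of 2 mouse cell lines, with and without rebastinib. Membership was set by gene symbol, and the rule was chosen with earlier results of these data known. It held every GENCODE vM21 gene whose symbol begins with Dnaja, Dnajb, Dnajc, Hspa, Hspb or Hsp90a, together with Hspd1, Hspe1, Hsph1, Hsf1, Hsf2, Bag1 to Bag6 and Cacybp, and without the endoplasmic reticulum stress genes Hspa5 and Dnajb9. This gave 83 of the 55421 genes counted, of which 80 were protein coding and 3 were pseudogenes. No library held a count for 4 of them (Dnajb8, Hspb3, Dnajc5b and Dnaja1-ps). A further 9 held between 1 and 55 counts over all 12 libraries and passed the expression filter in neither line, among them the heat-inducible Hspa1a. The other 70 were tested, 68 of them in ID8 and 66 in PMJ2R.

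Chaperones help other proteins to fold, to assemble and to avoid clumping. An HSP70 holds a client in a cycle of ATP binding and hydrolysis. J-domain proteins (the DNAJA, DNAJB and DNAJC genes) bring clients and trigger the hydrolysis, and nucleotide exchange factors, among them the HSP110 and BAG proteins, release the client again. HSP90 finishes many kinases and receptors, small heat shock proteins hold unfolded clients without ATP, and HSPD1 with its lid HSPE1 forms the folding chamber of the mitochondrion. HSF1 is the transcription factor that raises many of these genes when unfolded protein accumulates, by binding repeated GAA units in their promoters, the heat shock element.

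ID8 is an epithelial cancer line, labelled as ovarian epithelium of a female wild-type C57BL6J mouse. PMJ2R is a macrophage line, labelled as female C57BL6J peritoneal lavage carrying the v-raf and v-myc oncogenes. Each line had 3 control libraries and 3 libraries from cells given 5 nM rebastinib, a kinase inhibitor directed at the angiopoietin receptor TIE2, for 6 h. The labels name no vehicle for the controls. Nothing in them states that the 3 libraries of a group came from separate cultures, so the spread behind every p-value here may be technical. Each group stands for 1 cultured line, and the ID8 cells were detached with trypsin before freezing.

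All 12 macrophage markers examined reached 1 CPM in PMJ2R control libraries, and all 12 markers of ovarian surface epithelium did so in ID8 control libraries. With rebastinib 9 of the 12 ovarian markers reached 1 CPM in ID8 (Epcam, Pax8 and Muc16 did not), and their summed level was 2950 to 3060 CPM against 4410 to 4650 in control. Macrophage markers in ID8 summed to 16.9 to 18.1 CPM in control and 28.9 to 32.4 CPM with rebastinib, 3 of 12 at 1 CPM or more, and Adgre1, Spi1, Itgam, Lyz2, Laptm5 and Tyrobp had no count. No ovarian marker reached 1 CPM in PMJ2R. In ID8, 4 of 6 fibroblast markers reached 1 CPM (summed 263 to 281 CPM in control, 127 to 171 CPM with rebastinib). The part of these markers in the results below was not tested. Library totals ran from 19025504 to 27070556 counts. Rebastinib libraries gave more of their counts to cytosolic ribosomal protein genes (8.27 to 10.2% against 4.48 to 5.18% in ID8, and 7.27 to 7.56% against 4.75 to 5.50% in PMJ2R). They also gave more to mitochondrially encoded genes (4.74 to 5.12% against 2.92 to 3.14% in ID8, and 5.51 to 5.88% against 3.50 to 4.25% in PMJ2R) and to 3 genes overlapping ribosomal RNA (1.05 to 1.60% against 0.106 to 0.355%, and 5.63 to 5.99% against 0.0927 to 0.172%). The part of these shifts in the chaperone results was not tested.

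In bulk RNA, fewer cells of a kind and less RNA per cell cannot be told apart. The 83 genes together took 1.46 to 1.51% of counts in ID8 control libraries and 1.69 to 1.70% with rebastinib, which did not overlap. In PMJ2R the share was 1.82 to 1.85% in control and 1.84 to 1.86% with rebastinib, which overlapped. A few abundant genes made up most of this. The HSP90 gene Hsp90ab1 alone gave 36.7% of the chaperone counts, and Hsp90ab1, Hspd1, Hspa8, Hspa9 and Hsp90aa1 together gave 68.5%.

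In ID8, rebastinib raised 39 of the 68 chaperone genes tested and lowered 21 (edgeR's quasi-likelihood test with Benjamini-Hochberg adjustment over all genes, adjusted p under 0.05). Most of the transcriptome was called in the same comparison: 80.4% of 14829 genes tested passed, 38.4% higher and 42.0% lower. The chaperones therefore passed about as often as other genes (88.2%), while their split leaned to higher values, 57.4% higher and 30.9% lower, with a median log2 fold change of 0.40 against -0.07 for all genes tested. In PMJ2R 31 of 66 rose and 28 fell, where 83.7% of 14010 genes passed (40.1% higher and 43.6% lower). The median over the chaperones was 0.08 there, against -0.05 for all genes.

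These splits depend on the scale. Values were scaled with TMM factors, which centre the bulk of the genes. With library totals as the only scale, the median of all genes moved from -0.07 to -0.50 in ID8 and from -0.05 to -0.60 in PMJ2R, and the chaperones moved with it. The split then became 29 higher and 30 lower in ID8 (49.2% of the called members higher, against 65.0%), and 19 higher and 41 lower in PMJ2R (31.7% against 52.5%). A change of scale shifts every gene of a comparison by nearly the same amount. The distance between the median of the chaperones and that of all genes therefore stayed at 0.47 in ID8 and 0.13 in PMJ2R. It could not have served as a check of the lean. With no expression filter PMJ2R had 24 chaperones higher and 32 lower, and the distance there was -0.15. The counts and directions that follow are thus relative to the bulk of the genes in each line.

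**Figure D1:**
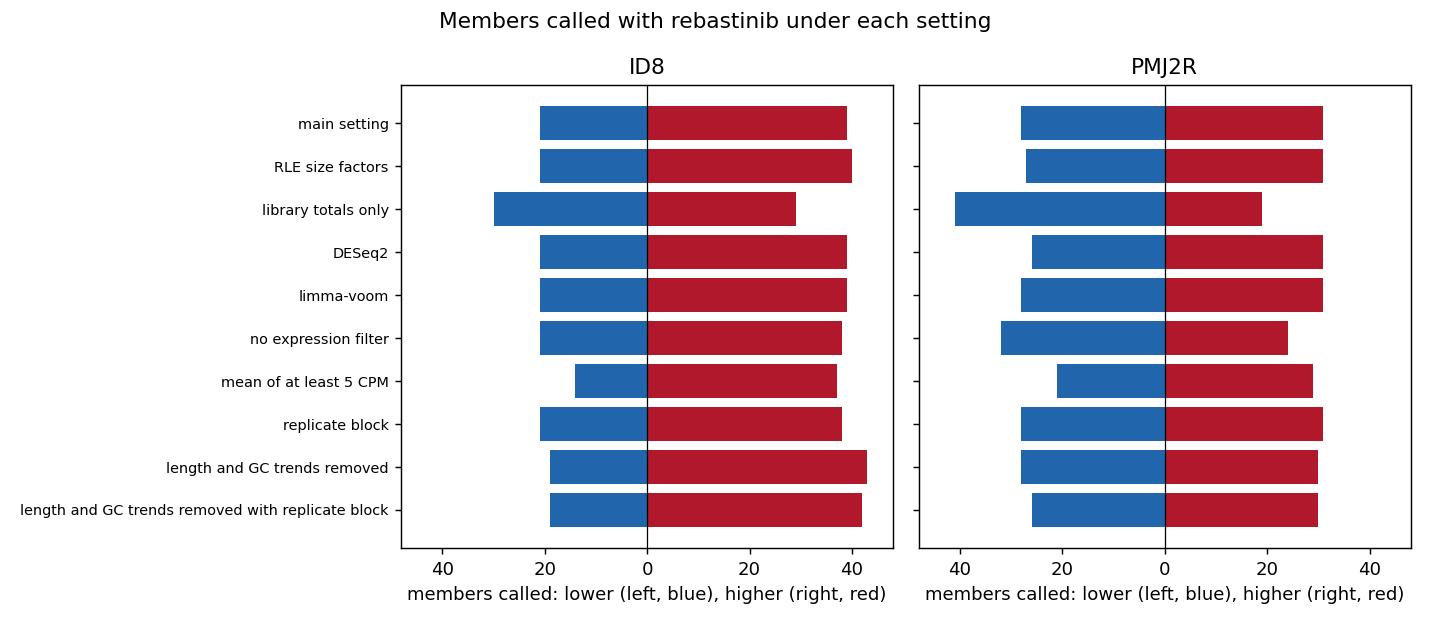
Number of chaperone genes called higher (right, red) or lower (left, blue) with rebastinib in ID8 and PMJ2R, one row for each way of processing the counts. The bars stay near 39 and 21 in ID8 and near 31 and 28 in PMJ2R, except with library totals only, where they are 29 and 30 in ID8 and 19 and 41 in PMJ2R, with fewer genes tested at a mean of at least 5 CPM and, in PMJ2R, with no expression filter.

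**Figure D2:**
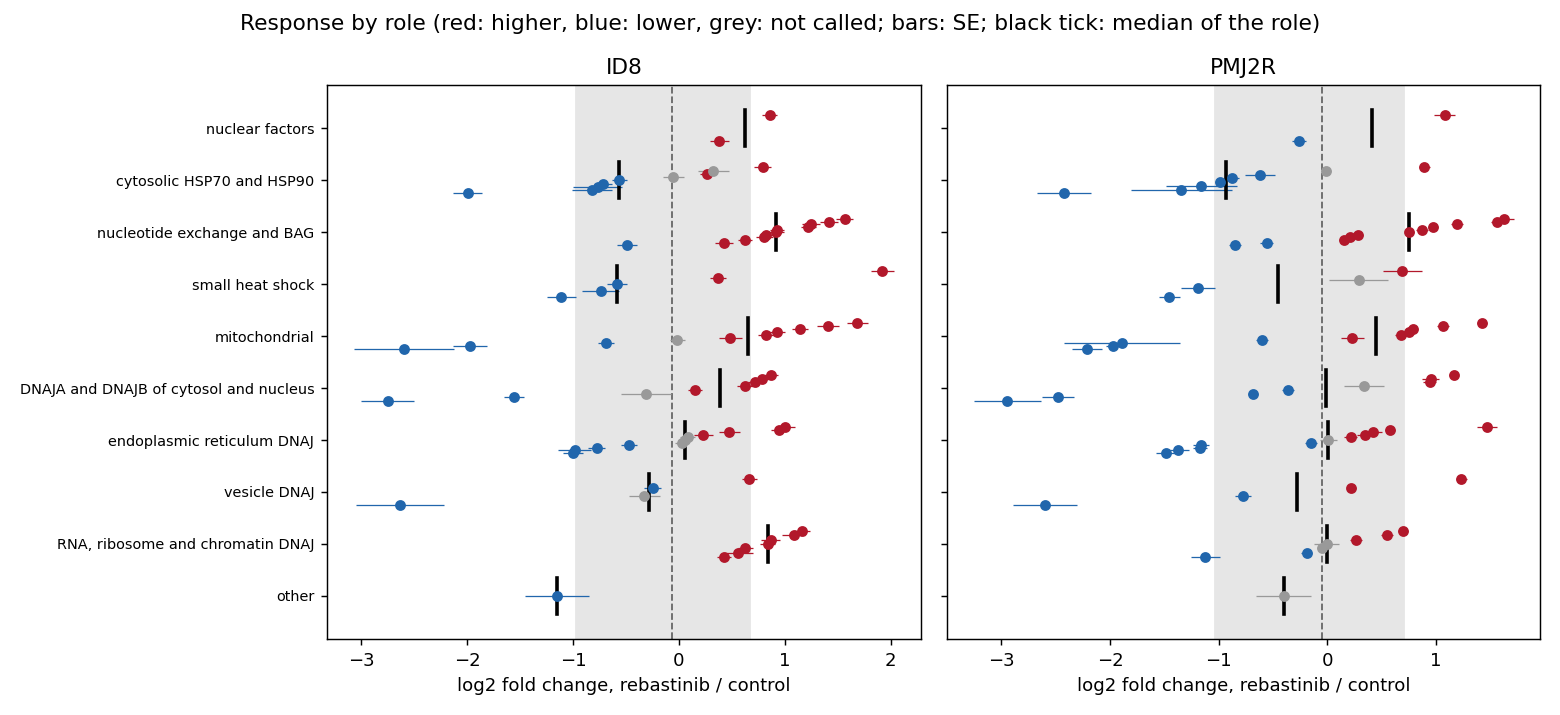
Log2 fold change with rebastinib (x axis, positive is higher with rebastinib) of each tested chaperone gene, grouped by role (y axis), in ID8 (left) and PMJ2R (right). Points carry their SE, black ticks are role medians, the dashed line is the median of all genes tested and the grey band spans their quartiles. The nucleotide exchange and BAG genes lie mostly to the right in the panels of both lines, and the cytosolic HSP70 and HSP90 genes mostly to the left.

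The heat shock factors moved differently in the lines. Hsf1, the main heat shock factor, stood at 72.6, 67.4 and 74.0 CPM in the ID8 control libraries and at 135, 126 and 127 CPM with rebastinib. The groups did not overlap, and the log2 fold change was 0.86 (SE 0.07, edgeR adjusted p = 4.26e-08). In PMJ2R the same gene read 68.1, 73.3 and 82.5 CPM in control and 64.0, 61.1 and 61.8 CPM with rebastinib, slightly lower and without overlap (log2 fold change -0.26, SE 0.07, edgeR adjusted p = 0.0013). This small decrease took the opposite sign, 0.08, once trends with transcript length and GC content were removed. Hsf2, a related factor that can pair with HSF1, rose in each line, from 23.0 ± 0.623 to 29.9 ± 2.22 CPM in ID8 and from 10.7 ± 0.624 to 22.5 ± 2.70 CPM in PMJ2R (SD, n = 3). Its log2 fold changes were 0.38 and 1.08. The ID8 value was -0.05 when library totals alone set the scale.

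Heat shock elements were looked for in the 250 bases before the start of the 64 members that have a promoter in the RefSeq table (GRCm38.p6), on both strands. A pair of inverted units (GAANNTTC or TTCNNGAA) was present in 14 of them, 21.9%, against 14.5% of the 27025 genes in the table. A run of 3 units, in which a further inverted unit follows the pair at the same spacing, was present in 3, 4.69%, against 0.514% of all genes. The 3 were Hspd1, Hspe1 and Dnajb6, and all 3 rose in each line. Of the members with a promoter in the table, 7 of the 31 that rose in ID8 held the pair, 1 of the 15 that fell and 4 of the 8 that did not pass. In PMJ2R the pair was held by 5 of the 25 that rose, 3 of the 22 that fell and 1 of the 5 that did not pass. The letters alone do not show that a factor binds there. Members with no promoter in the table were not searched, among them Hsp90aa1, Hsp90ab1, Hspa8, Hspa9 and Hsf1. The windows below are those around the elements of the genes the account turns on, each 5′ to 3′ on the gene's own strand, with the element in capitals and all other bases in lower case.
Hspe1, chr1:55088053-55088082, plus strand: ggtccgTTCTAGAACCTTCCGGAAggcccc
Hspd1, chr1:55088053-55088082, minus strand: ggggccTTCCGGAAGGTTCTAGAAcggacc
Dnajb6, chr5:29735843-29735872, plus strand: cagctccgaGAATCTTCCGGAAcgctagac
Hsph1, chr5:149636351-149636380, minus strand: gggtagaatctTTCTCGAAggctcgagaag
Dnaja1, chr4:40722333-40722362, plus strand: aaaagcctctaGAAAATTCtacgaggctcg
Hspb1, chr5:135887766-135887865, plus strand: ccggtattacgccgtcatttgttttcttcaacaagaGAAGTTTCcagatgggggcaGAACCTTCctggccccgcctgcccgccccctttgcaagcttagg
Hspb6, chr7:30553135-30553234, plus strand: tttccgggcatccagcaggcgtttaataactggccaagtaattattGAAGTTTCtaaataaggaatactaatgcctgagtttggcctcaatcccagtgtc
Hspa1b, chr17:34959289-34959388, minus strand: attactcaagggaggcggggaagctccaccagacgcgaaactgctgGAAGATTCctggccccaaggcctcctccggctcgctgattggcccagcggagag
Hspd1 and Hspe1 face away from each other on chromosome 1 and share a single element, so its letters in one gene's window are the reverse complement of those in the other's. The window of Hspa1a, chr17:34972207-34972306, holds the same letters as that of Hspa1b. The windows of Hspe1, Hspd1, Dnajb6, Hsph1 and Dnaja1 meet annotated GENCODE exons.

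Of the cytosolic HSP70 and HSP90 genes, the abundant Hsp90ab1 rose and the abundant Hspa8 fell in each line. Hsp90ab1, the constitutive HSP90 and the most abundant chaperone transcript here (chromosome 17, 45567775 to 45573271, GRCm38), read 4690, 4700 and 4810 CPM in ID8 control and 8450, 8280 and 7860 CPM with rebastinib. The log2 fold change was 0.79 (SE 0.08, edgeR adjusted p = 3.83e-07). PMJ2R gave 4410, 4700 and 4980 CPM in control and 8860, 8720 and 8600 CPM with rebastinib, a log2 fold change of 0.89 (SE 0.05, edgeR adjusted p = 1.94e-11). The test of the difference between lines did not pass for Hsp90ab1 (0.04, SE 0.09, edgeR adjusted p = 0.76), so the 2 responses could not be told apart at this precision. The heat-inducible HSP90 gene Hsp90aa1 changed far less, from 762 ± 29.2 to 919 ± 36.3 CPM in ID8 (log2 fold change 0.27, SE 0.07) and from 1090 ± 59.4 to 1080 ± 16.2 CPM in PMJ2R, which did not pass. On library totals alone its ID8 value was -0.16 and its PMJ2R value -0.57, and each passed as lower. Of the 50-base stretches of its longest transcript, 58.5% occur in other annotated genes, against 4.49% for Hsp90ab1. The level of Hsp90aa1 thus rests on how such reads were counted, which the sources used here do not give.

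Hspa8, the constitutive HSP70 of the cytosol, went the other way. It read 1740, 1780 and 1910 CPM in ID8 control and 1200, 1000 and 1100 CPM with rebastinib (log2 fold change -0.71, SE 0.08, edgeR adjusted p = 2.10e-06). In PMJ2R it read 1950, 1920 and 1970 CPM in control and 982, 950 and 1010 CPM with rebastinib (log2 fold change -0.99, SE 0.04, edgeR adjusted p = 5.42e-13). The groups did not overlap in either line. Hspa14, a ribosome-associated HSP70, fell by 0.56 and 0.88 on the log2 scale in ID8 and PMJ2R. Hspa2, an HSP70 best known from the testis, fell from 10.8 ± 0.280 to 2.70 ± 0.243 CPM in ID8 and was low in PMJ2R throughout (0.538 ± 0.0847 to 0.210 ± 0.0997 CPM). Hspa8 holds 3 small nucleolar RNA genes within its annotated exons on the same strand, and 52.7% of the 50-base stretches of its longest transcript occur in other annotated genes, so its level rests on how such reads were counted, which the sources used here do not give.

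The heat-inducible HSP70 pair was low. Hspa1b, whose product is the classic stress-induced HSP70, had 4.02, 4.55 and 4.20 CPM in ID8 control and 4.99, 5.84 and 5.19 CPM with rebastinib. The groups did not overlap, but the log2 fold change of 0.32 (SE 0.15) missed the threshold with an edgeR adjusted p of 0.0547. It passed with length and GC trends removed (0.48, edgeR adjusted p = 0.00817, and 0.0167 with the replicate block as well), with RLE size factors (edgeR adjusted p = 0.0333) and without the first ID8 rebastinib library (edgeR adjusted p = 0.0384). On library totals alone the direction turned, with Hspa1b at 4.94 CPM over the ID8 control group and 4.58 CPM over the ID8 rebastinib group. Its twin Hspa1a held 28 counts over the 3 ID8 control libraries and 19 with rebastinib and was not tested. No PMJ2R library held a count of Hspa1b, and the 6 PMJ2R libraries together held 1 count of Hspa1a. The 2 genes share 62.3% and 66.3% of their 50-base stretches with other genes, mostly with each other, so reads common to them may have been left out or split. Over the whole group, 2 of 9 tested genes rose and 5 fell in ID8 (median -0.56), and 1 of 8 rose and 6 fell in PMJ2R (median -0.93).

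Release factors and the gene grouped with them moved largely in one direction. The 11 nucleotide exchange and BAG genes include Cacybp, whose function, given below, differs from the group's name. Of the 11, 10 rose and 1 fell in ID8, with a median log2 fold change of 0.92. In PMJ2R 9 rose and 2 fell, with a median of 0.75. The split was 9 and 1 in ID8 and 6 and 5 in PMJ2R on library totals alone. Bag3 (chromosome 7, 128523616 to 128546981, GRCm38), which links HSP70 to small heat shock proteins and to autophagy, read 87.0, 80.8 and 76.4 CPM in ID8 control and 261, 236 and 226 CPM with rebastinib (log2 fold change 1.57, SE 0.08, edgeR adjusted p = 3.28e-10). PMJ2R gave 42.6, 49.3 and 57.7 CPM in control and 154, 156 and 154 CPM with rebastinib (log2 fold change 1.63, SE 0.08, edgeR adjusted p = 3.14e-10). Every rebastinib library lay above every control library by a wide margin, and the difference between the lines was 0.01 (SE 0.12), which did not pass.

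Bag1, an exchange factor that ties HSP70 to the proteasome, rose from 102 ± 1.13 to 273 ± 33.3 CPM in ID8 and from 116 ± 4.17 to 228 ± 4.93 CPM in PMJ2R (log2 fold changes 1.42 and 0.97). Bag6, which guards hydrophobic tail segments of new proteins, rose by 0.93 and 1.19 on the log2 scale. Bag4 rose more in PMJ2R, from 37.1 ± 0.926 to 109 ± 1.15 CPM (log2 fold change 1.56), than in ID8, from 31.6 ± 1.83 to 55.3 ± 4.01 CPM (0.81). That difference passed the test (0.69, SE 0.10, edgeR adjusted p = 2.07e-06). A long noncoding gene shares exon sequence with Bag4 on the opposite strand. Bag2, which blocks the ubiquitin ligase partner of HSP70, fell by 0.49 in ID8 and by 0.85 in PMJ2R.

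Cacybp, which joins a ubiquitin ligase and binds calcyclin, read 127, 137 and 138 CPM in ID8 control and 309, 331 and 297 CPM with rebastinib (log2 fold change 1.22, SE 0.07). In PMJ2R it read 353, 355 and 335 CPM and 587, 581 and 590 CPM (0.75, SE 0.04; 0.43 once length and GC trends were removed). Its groups did not overlap in either line. Hsph1, an HSP110 exchange factor and a usual target of HSF1, rose in ID8 from 164, 162 and 168 CPM to 293, 288 and 294 CPM (a log2 fold change of 0.83 with SE 0.06, edgeR adjusted p = 1.95e-08). In PMJ2R it moved only from 319 ± 14.6 to 355 ± 2.59 CPM (0.16, SE 0.05), and that value was -0.40 with library totals only and -0.05 with no expression filter. Hspa4l, a further HSP110, parted the lines, from 87.9 ± 4.44 to 166 ± 12.6 CPM in ID8 and from 52.7 ± 2.08 down to 35.8 ± 0.782 CPM in PMJ2R.

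Hspb1 gave the largest increase of any chaperone tested in ID8. This small heat shock protein gene (chromosome 5, 135887919 to 135889563, GRCm38), also called Hsp25 in the mouse, read 22.6, 21.0 and 24.1 CPM in control and 100, 82.7 and 73.9 CPM with rebastinib. The log2 fold change was 1.92 (SE 0.11, edgeR adjusted p = 1.01e-09). PMJ2R held 9 counts of it over 3 control libraries and 0 over 3 rebastinib libraries, so with rebastinib its level in ID8 was at least 1420-fold that in PMJ2R (taking 3 counts over the PMJ2R group as the floor). About 51.6% of the 50-base stretches of Hspb1 occur in other annotated genes, chiefly a pseudogene.

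Hspb8, the partner of BAG3 in clearing misfolded protein, was abundant in ID8. Hspb8 rose from 132 ± 10.8 to 170 ± 11.4 CPM there (log2 fold change 0.37, SE 0.08, and -0.06 on library totals alone) and had no count in any PMJ2R library. Hspb6 fell in each line, from 18.3 ± 0.413 to 12.2 ± 0.290 CPM in ID8 and from 5.89 ± 0.600 to 2.58 ± 0.294 CPM in PMJ2R. Hspbap1, named for binding HSPB1 and no small heat shock protein itself, fell by 1.11 and 1.46 on the log2 scale. Hspb11, an intraflagellar transport subunit despite its name, fell by 0.74 in ID8 and rose by 0.69 in PMJ2R. The PMJ2R value did not pass once length and GC trends were removed (0.32, edgeR adjusted p = 0.0993) or with library totals only (0.13). Across the group, 2 of 5 tested genes rose and 3 fell in ID8, and 1 of 4 rose and 2 fell in PMJ2R.

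**Figure D3:**
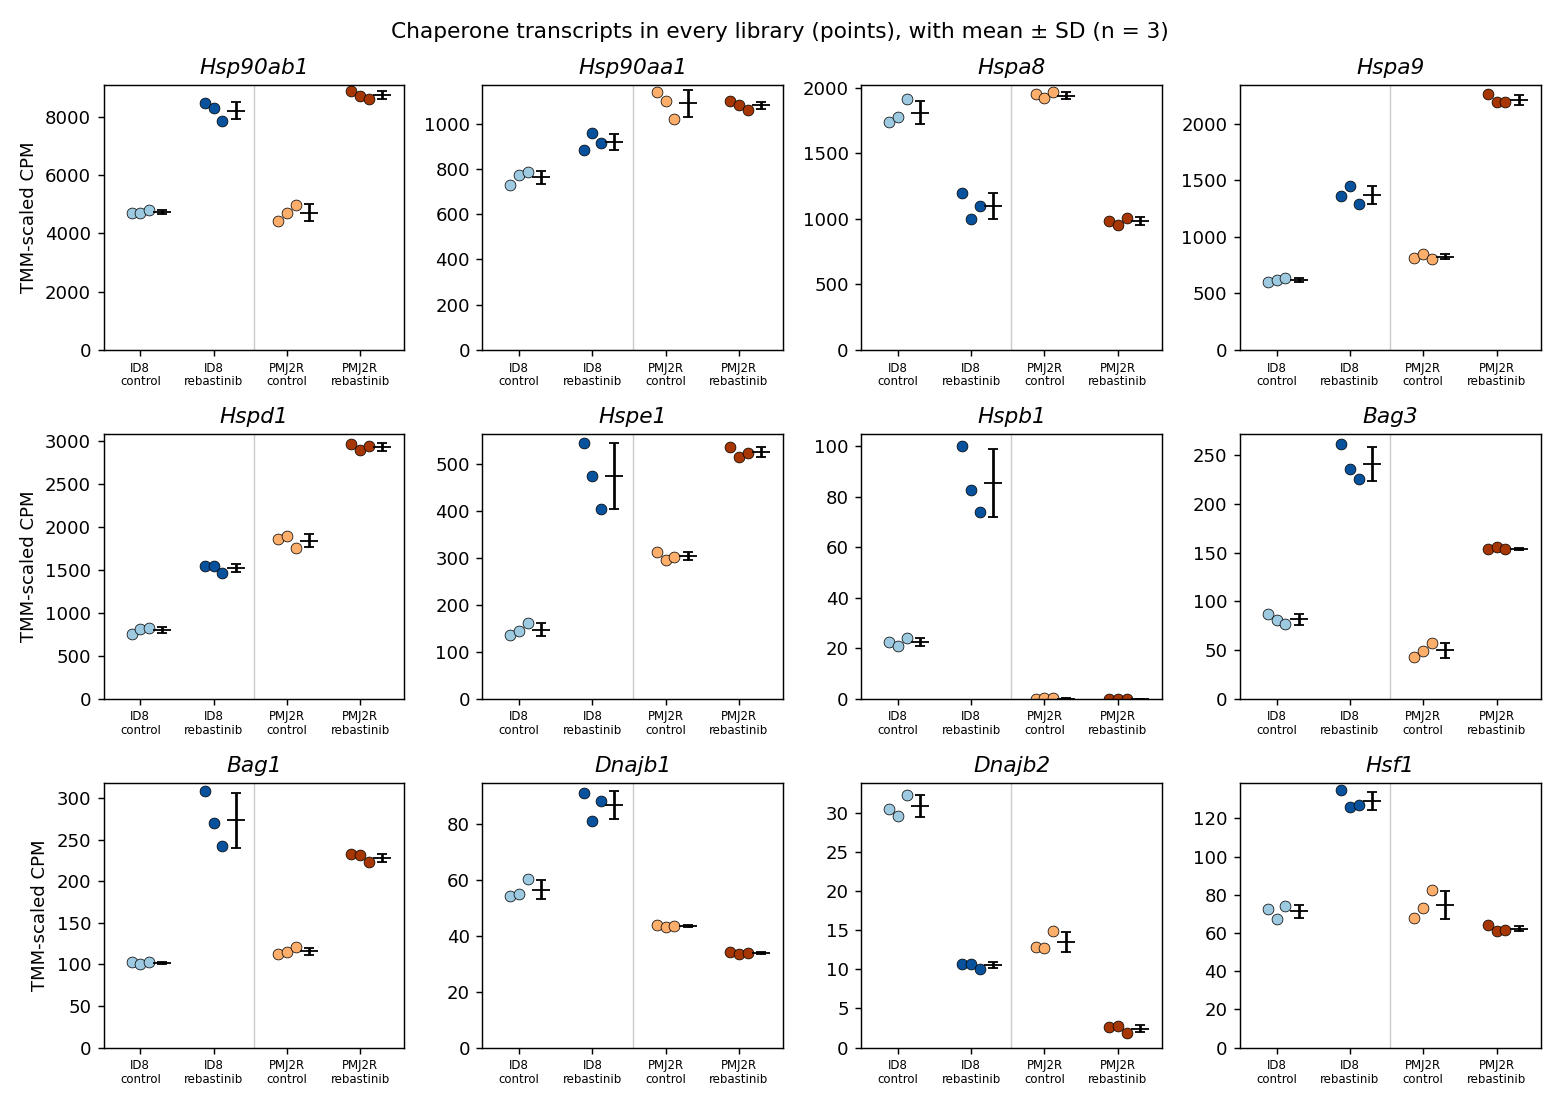
TMM-scaled CPM (y axis, linear from 0) of 12 chaperone genes in each of the 12 libraries (points), with the group mean and SD beside them (n = 3). ID8 and PMJ2R were scaled separately, so levels are compared within a line. Rebastinib libraries lie above control libraries in each line for Hsp90ab1, Hspa9, Hspd1, Hspe1, Bag3 and Bag1 and below them for Hspa8 and Dnajb2, while Dnajb1 and Hsf1 are higher in ID8 and lower in PMJ2R.

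The HSP70 of the mitochondrion and both parts of its folding chamber rose in each line, while the J proteins of the group split. Hspa9, the mitochondrial HSP70, read 598, 620 and 636 CPM in ID8 control and 1360, 1450 and 1290 CPM with rebastinib (log2 fold change 1.14, SE 0.08, edgeR adjusted p = 5.07e-09). In PMJ2R it read 814, 851 and 807 CPM and 2260, 2190 and 2190 CPM (1.43, SE 0.05, edgeR adjusted p = 5.54e-15). The groups lay far apart in each line. Hspd1, the chaperonin whose promoter stands above, read 756, 813 and 828 CPM in ID8 control and 1550, 1540 and 1460 CPM with rebastinib (0.92, SE 0.07). PMJ2R gave 1860, 1900 and 1760 CPM and 2970, 2890 and 2940 CPM (0.67, SE 0.05).

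Hspe1, the lid of that chamber and its neighbour across the shared promoter, read 135, 144 and 161 CPM in ID8 control and 543, 473 and 403 CPM with rebastinib (log2 fold change 1.69, SE 0.10, edgeR adjusted p = 2.20e-09). PMJ2R gave 312, 295 and 301 CPM and 535, 515 and 522 CPM (0.79, SE 0.04, edgeR adjusted p = 7.78e-12). Hspe1 has a short transcript, and with length and GC trends removed its values were 1.05 and 0.22. The 2 genes overlap by 112 exon bases on opposite strands, and 44.8% of the 50-base stretches of Hspd1 occur in other genes, mostly its pseudogenes.

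Among the mitochondrial J proteins, Dnajc15 and Dnajc19, which sit at the protein import motor of the inner membrane, rose in each line, Dnajc15 by 1.41 and 0.75 and Dnajc19 by 0.83 and 1.06 on the log2 scale in ID8 and PMJ2R. Dnajc11, a part of the complex that shapes mitochondrial cristae, fell from 69.9 ± 1.39 to 43.3 ± 3.39 CPM in ID8 and much further in PMJ2R, from 124 ± 2.81 to 31.5 ± 2.88 CPM (log2 fold changes -0.69 and -1.97). Dnajc30, chosen for mention after its values were seen, fell from 14.8 ± 0.735 to 3.80 ± 1.03 CPM and from 14.0 ± 1.38 to 3.02 ± 0.429 CPM, and shares exon sequence with Bud23 on the opposite strand. Counted over the 10 genes of this group, 6 rose and 3 fell in ID8, and 6 rose and 4 fell in PMJ2R. On library totals alone the counts were 5 and 4, and 5 and 5.

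The J proteins of the cytosol and nucleus held the steepest falls. Dnajb5 read 4.64, 4.28 and 4.12 CPM in ID8 control and 0.963, 0.492 and 0.492 CPM with rebastinib (log2 fold change -2.75, SE 0.25, edgeR adjusted p = 1.34e-07). In PMJ2R Dnajb5 went from 3.25 ± 0.487 to 0.410 ± 0.269 CPM (-2.95, SE 0.31). Dnajb2, which carries clients to the proteasome, read 30.4, 29.6 and 32.3 CPM in ID8 control and at most 10.7 CPM with rebastinib (-1.56, SE 0.09, edgeR adjusted p = 1.96e-09). In PMJ2R Dnajb2 read 12.8, 12.7 and 14.9 CPM and 2.62, 2.70 and 1.90 CPM (-2.48, SE 0.14, edgeR adjusted p = 1.56e-11). In each of these genes the rebastinib libraries lay below the control libraries without overlap.

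Dnaja2, a main cytosolic partner of HSPA8, rose from 284 ± 7.79 to 518 ± 13.4 CPM in ID8 and from 319 ± 6.69 to 714 ± 12.6 CPM in PMJ2R (log2 fold changes 0.87 and 1.16). Dnajb6, which prevents aggregation and carries the 3-unit element shown above, rose by 0.78 and 0.94. Dnajb1, the J protein most often read as a sign of the heat shock response, rose in ID8 and fell in PMJ2R. In ID8 it stood at 54.0, 54.7 and 60.3 CPM in control and 90.9, 81.1 and 88.2 CPM with rebastinib (0.62, SE 0.08, edgeR adjusted p = 2.92e-06). In PMJ2R it read 43.7, 43.1 and 43.4 CPM and 34.1, 33.3 and 33.8 CPM (-0.36, SE 0.06, edgeR adjusted p = 1.82e-05). That decrease did not pass once length and GC trends were removed (-0.06, edgeR adjusted p = 0.303).

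Dnaja1, the other main partner of HSPA8, barely moved in ID8, from 161 ± 6.21 to 178 ± 6.36 CPM (a log2 fold change of 0.15 with SE 0.07, edgeR adjusted p = 0.0487). Leaving out any one of the 3 control libraries, or the first or the second rebastinib library, ended that call (0.11, 0.15, 0.17, 0.13 and 0.18, in that order), and with library totals only it was -0.28. With length and GC trends removed it was 0.40 (edgeR adjusted p = 0.000141). In PMJ2R Dnaja1 read 169, 171 and 164 CPM in control and 101, 107 and 106 CPM with rebastinib, a clear fall (-0.68, SE 0.05, edgeR adjusted p = 1.92e-10). Its exons overlap Smu1 on the opposite strand. Over the group, 5 of 8 tested genes rose and 2 fell in ID8, and 3 of 8 rose and 4 fell in PMJ2R.

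The J proteins of the endoplasmic reticulum, counted here with the microsomal HSP70 gene Hspa13, showed no common direction with TMM scaling: 4 of 11 rose and 4 fell in ID8, and 5 rose and 5 fell in PMJ2R. This balance depends on the scale. On library totals alone 2 rose and 7 fell in ID8, and 1 rose and 8 fell in PMJ2R. With length and GC trends removed the counts were 7 and 4, and 5 and 5. Dnajb11, which serves the HSP70 of the endoplasmic reticulum lumen, rose from 107 ± 1.45 to 207 ± 16.6 CPM in ID8 and from 108 ± 1.96 to 161 ± 1.43 CPM in PMJ2R. Its PMJ2R call was not kept under every alternative. Dnajc25 rose by 1.00 and 1.47 on the log2 scale. Membrane-bound Dnajb12 fell from 55.9 ± 1.91 to 27.9 ± 3.64 CPM and from 45.6 ± 5.39 to 17.6 ± 2.23 CPM. Dnajc14 fell by 0.78 and 1.17, with exons shared with Ormdl2 on the opposite strand, and Dnajc16 by 0.99 and 1.49. Dnajb14, a relative of Dnajb12, fell in PMJ2R from 31.0 ± 1.03 to 13.8 ± 0.208 CPM (-1.16, SE 0.07), while its ID8 value of 0.23 did not pass without the first control library (0.23, edgeR adjusted p = 0.0671), without the third (0.16, edgeR adjusted p = 0.137) or without the first rebastinib library (0.18, edgeR adjusted p = 0.0678). It was -0.20 with library totals only and 0.67 with length and GC trends removed (edgeR adjusted p = 5.16e-06).

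Of the 4 tested J proteins of vesicles and endosomes, Dnajc5, the cysteine string protein of secretory vesicles, rose from 97.1 ± 4.30 to 154 ± 8.93 CPM in ID8 and from 71.5 ± 1.90 to 168 ± 6.06 CPM in PMJ2R. Dnajc22 fell from 1.46 ± 0.462 to 0.221 ± 0.0951 CPM in ID8 and from 2.56 ± 0.360 to 0.420 ± 0.155 CPM in PMJ2R, at few counts. Dnajc27 fell by 0.78 in PMJ2R on the log2 scale, and its ID8 value of -0.33 did not pass (edgeR adjusted p = 0.0544). Dnajc13, an endosomal J protein with a long transcript, gave -0.25 in ID8 and 0.22 in PMJ2R. The ID8 value became 0.14 when length and GC trends were removed, and the PMJ2R value -0.34 with library totals only. Dnajc12, placed in no group, went from 1.51 ± 0.403 to 0.680 ± 0.0555 CPM in ID8 (-1.16, SE 0.30) and did not pass in PMJ2R.

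The J proteins grouped under RNA, the ribosome and chromatin all rose in ID8, 7 of 7, with a median log2 fold change of 0.84. The group is a loose one. It includes Dnajc7 and Dnajc24 (1.16 and 1.08 in ID8), whose functions, given below, differ from its name. On library totals alone 5 of the 7 passed, each of them higher. In PMJ2R 3 rose and 2 fell (median -0.00, written to 2 decimals). That PMJ2R split was 1 and 5 on library totals alone, and 2 and 4 with length and GC trends removed. Dnajc7, which passes clients between HSP70 and HSP90, rose in each line, from 96.5, 96.7 and 107 CPM to 231, 234 and 206 CPM in ID8 and from 138, 131 and 130 CPM to 212, 212 and 222 CPM in PMJ2R (1.16 and 0.70). Dnajc9, a histone chaperone, rose from 57.7 ± 1.64 to 103 ± 5.91 CPM in ID8 and went from 116 ± 2.10 to 112 ± 2.76 CPM in PMJ2R, which did not pass. Dnajc24, a factor of the diphthamide pathway, rose from 8.41 ± 0.871 to 17.9 ± 0.952 CPM in ID8 and read 9.83, 8.97 and 8.19 CPM in control and 9.20, 9.73 and 7.93 CPM with rebastinib in PMJ2R, which did not pass. Its ID8 log2 fold change of 1.08 was 0.57 with length and GC trends removed. Dnajc21, which joins ribosome assembly, rose by 0.63 and 0.55. Dnajc17, a splicing-linked J protein, read 6.83 ± 0.561 and 10.1 ± 1.78 CPM in ID8 and fell from 7.75 ± 0.764 to 3.56 ± 0.230 CPM in PMJ2R. Its ID8 increase (0.56, SE 0.14) was 0.12 and did not pass once length and GC trends were removed.

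The remaining tested members were looked at after their values were seen, to complete the groups. The release factors Hspa4 (log2 fold changes of 0.63 in ID8 and 0.28 in PMJ2R) and Hspbp1 (1.25 and 0.87) rose in each line, and Bag5 rose by 0.43 in ID8. Among cytosolic HSP70 relatives, Hspa1l fell by 0.82 and 0.62 and Hspa12b by 0.77 and 1.16, and Hspa12a fell by 2.42 in PMJ2R, from 4.26 ± 0.453 to 0.781 ± 0.417 CPM, with no call in ID8. Dnajb4, a J protein of muscle and other tissues, rose by 0.72 and 0.95, and Dnajc8, linked to splicing, by 0.87 and 0.26. In the mitochondrial group Dnajc4 rose by 0.49 in ID8, and Dnajc28 fell in each line at few counts (by 1.89 in PMJ2R). Dnaja3, the main J protein of the matrix, fell by 0.60 in PMJ2R and showed -0.01 in ID8 without a call. Of the endoplasmic reticulum members, Dnajc18 rose by 0.48 and 0.42, and Dnajc10 passed in neither line. Dnajc1 and Dnajc3 did not pass in ID8 (0.08 and 0.05). The PMJ2R values of Bag5, Dnajc1, Dnajc3 and Dnajc4 lay between -0.15 and 0.23, and each of these 4 calls was lost under at least 1 alternative. On library totals alone Bag5 in ID8 was -0.01, and in PMJ2R Hspa4 was -0.27, Dnajc8 -0.29 and Dnajc18 -0.13. Dnaja4 in ID8 and Dnajb13 and Hspb7 in PMJ2R were tested and did not pass.

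Read side by side, 64 chaperone genes were tested in both lines. They rose in both lines in 27 cases and fell in both in 17, and 10 were called in opposite directions. The same counts were not taken over all genes, of which 80.4% passed in ID8 and 83.7% in PMJ2R. They are therefore not read as particular to the chaperones. Dnaja1, Dnajb1, Dnajb14, Dnajc17, Dnajc2, Hsf1 and Hspa4l were higher in ID8 and lower in PMJ2R, and Dnajc13, Hspa13 and Hspb11 were lower in ID8 and higher in PMJ2R. Across the 64 genes the 2 log2 fold changes had a Pearson correlation of 0.82, and across all 12398 genes tested in both lines 0.70. Of the 10 opposite calls, 9 lost or reversed 1 or both of their calls under at least 1 alternative: Dnaja1, Dnajb14, Dnajc17 and Dnajc2 in ID8, Dnajb1, Hsf1, Hspa13 and Hspb11 in PMJ2R, and Dnajc13 in each line. Hspa4l kept both. Genes are not independent replicates, and each line's fold changes share their 3 control libraries.

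**Figure D4:**
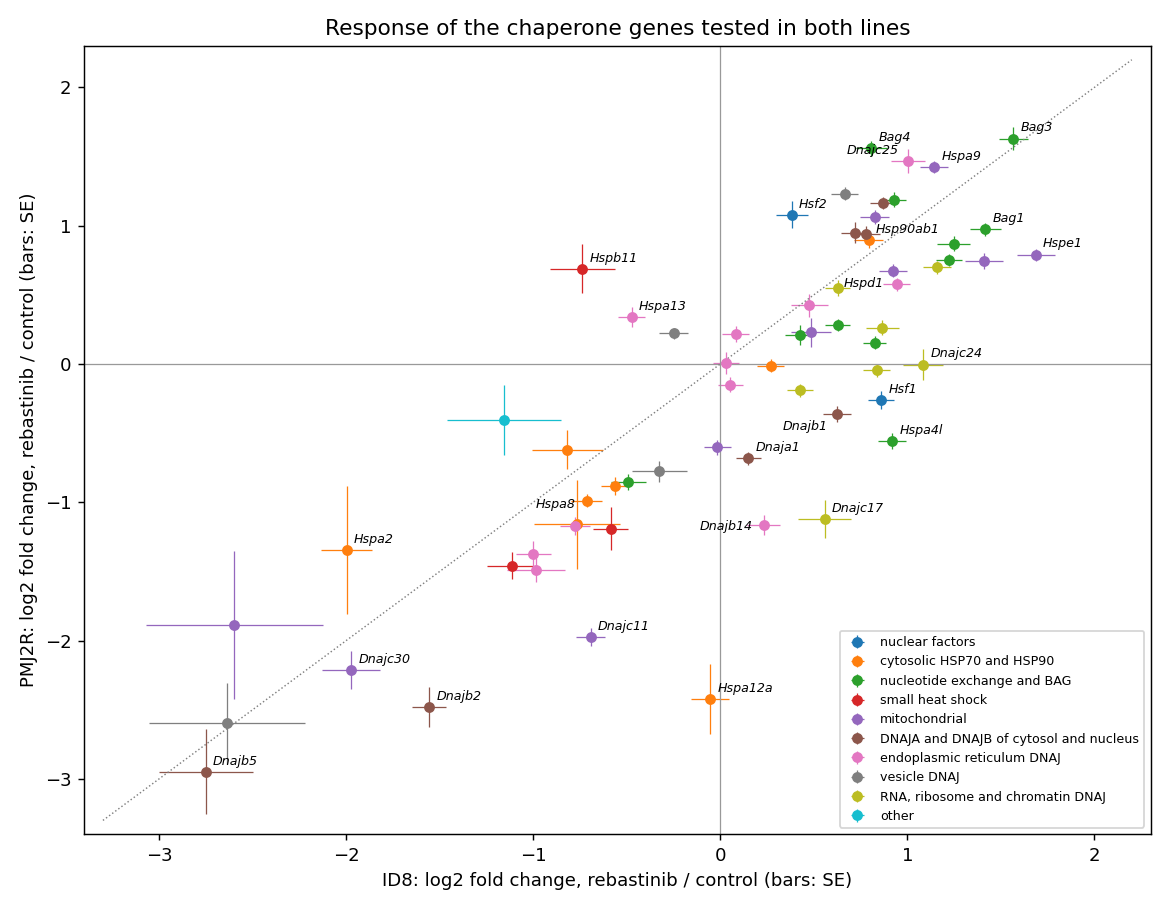
Log2 fold change with rebastinib in ID8 (x axis) against PMJ2R (y axis) for the 64 chaperone genes tested in both lines, coloured by role, with SE bars; the dotted line marks equal responses. Bag3, Hspa9 and Hsp90ab1 lie near the dotted line at the upper right, Dnajb5 and Dnajb2 at the lower left, and Hsf1, Dnajb1, Hspa4l, Dnajb14 and Dnajc17 at the lower right, higher in ID8 and lower in PMJ2R.

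The difference of the responses was tested directly, as the PMJ2R change minus the ID8 change over all 12 libraries. It passed for 46 of 70 tested chaperones, more positive in PMJ2R for 9 and more negative for 37, where 52.4% of 16566 genes passed (21.8% more positive, 30.6% more negative). The median over the chaperones was -0.33 and over all genes -0.10. The split was 13 and 30 with RLE size factors (30.2% of those called were more positive, against 19.6%), which moved the median of all genes to 0.02. The difference for Hspb1 was among the 37 and rests on a PMJ2R group with no count.

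Hspa4l showed the smallest p of the difference. Its log2 fold change was 0.92 in ID8 and -0.56 in PMJ2R, each from the fit of that line's 6 libraries. The fit over all 12 libraries, with TMM factors of its own, gave a difference of -1.53 (SE 0.10, edgeR adjusted p = 6.14e-12). Differences from that fit therefore need not equal those between the fold changes quoted for each line. Hsf1 differed by -1.18 (SE 0.10, edgeR adjusted p = 1.51e-09), Dnajb1 by -1.04 (SE 0.10, edgeR adjusted p = 4.05e-09) and Hsph1 by -0.73 (SE 0.08, edgeR adjusted p = 4.37e-08). The responses of Hsf1, Dnajb1 and Hsph1 were thus more positive in ID8 than in PMJ2R. Each was named here for its small p of the difference. The called chaperones as a whole leaned the same way, 37 more negative in PMJ2R and 9 more positive. The differences for Bag3 and Hsp90ab1, given above, did not pass. A part of the heat shock factor in these differences was not tested. Dnajb14 differed by -1.45 and Dnajc11 by -1.34, the latter as a deeper fall in PMJ2R. Dnaja1 differed by -0.89 and Dnajc9 by -0.94. Among the genes with the opposite lean, Bag4, Hspa13 (0.76, SE 0.10) and Hsf2 (0.64, SE 0.13) were more positive in PMJ2R.

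Without rebastinib the chaperone transcripts differed between the lines about as often as those of other genes (82.9% passed), and less often at a 2-fold minimum. In the 6 control libraries 29 of 70 tested genes were higher in PMJ2R and 29 higher in ID8, where 82.3% of 15924 genes passed (39.4% higher and 42.9% lower in PMJ2R). Asked for a difference of at least 2-fold, 7 were higher in PMJ2R and 12 in ID8, 27.1% of the chaperones against 38.6% of all genes tested (15.4% higher and 23.3% lower in PMJ2R). The most abundant genes were close: per kilobase of the longest transcript Hsp90ab1 stood at 2250 CPM in ID8 and 2200 in PMJ2R, and Hspa8 at 684 and 726, neither past the threshold. In ID8 the order per kilobase went on with Hspd1 (394), Hsp90aa1 (278), Hspa9 (242) and Hspe1 (182). In PMJ2R it was Hspd1 (894), Hspa8, Hsp90aa1 (390), Hspe1 (370) and Hspa9 (318), with Hsp90ab1 first in each.

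Of 6 tested genes in the small heat shock group, 4 were higher in ID8 control and 2 in PMJ2R control (Hspbap1, and Hspb7 at 1.26 against 0.0758 CPM, named after their values were seen). Hspb8 (chromosome 5, 116408491 to 116422864, GRCm38) read 152, 149 and 171 CPM in ID8 control and no PMJ2R library held a count. By the floor of 3 counts over the group, its control level was at least 3840-fold lower in PMJ2R. Hspb1 read 25.2 to 28.7 CPM against 0.0412 to 0.158 CPM, Hspa2 12.9 ± 0.404 against 0.636 ± 0.108 CPM, and Hspa12a, a distant HSP70 relative, 27.6 ± 2.41 against 5.02 ± 0.486 CPM. Hspb6 and the endoplasmic reticulum disulfide reductase gene Dnajc10 were lower in PMJ2R by log2 differences of -1.66 and -1.53. Hspa1b held 335 counts in ID8 control and 0 in PMJ2R control, a level at least 124-fold lower. In the endoplasmic reticulum group 9 of 11 genes were higher in ID8 and 0 were higher in PMJ2R.

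PMJ2R held more of the mitochondrial chaperonin and of several cytosolic factors. Hspd1 read 2180, 2220 and 2100 CPM in PMJ2R control and 905, 978 and 983 CPM in ID8 control (log2 difference 1.18, SE 0.06, edgeR adjusted p = 6.26e-13). Hspe1 showed a log2 difference of 1.02 (SE 0.07), which was 0.39 with length and GC trends removed. Cacybp read 409 ± 7.43 against 160 ± 7.41 CPM, Dnajc2, the ribosome-associated J protein, 260 ± 2.23 against 102 ± 5.99 CPM, Bag2 83.3 ± 4.75 against 34.6 ± 1.23 CPM, and Dnajc27 31.4 ± 0.167 against 6.37 ± 0.498 CPM. The libraries of the 2 lines did not overlap for any of these. Hsf1 was alike in level, 88.0 ± 9.72 and 85.3 ± 3.63 CPM with a log2 difference of 0.05 (SE 0.07) that did not pass, and Hsf2 was lower in PMJ2R (-1.13, SE 0.08).

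**Figure D5:**
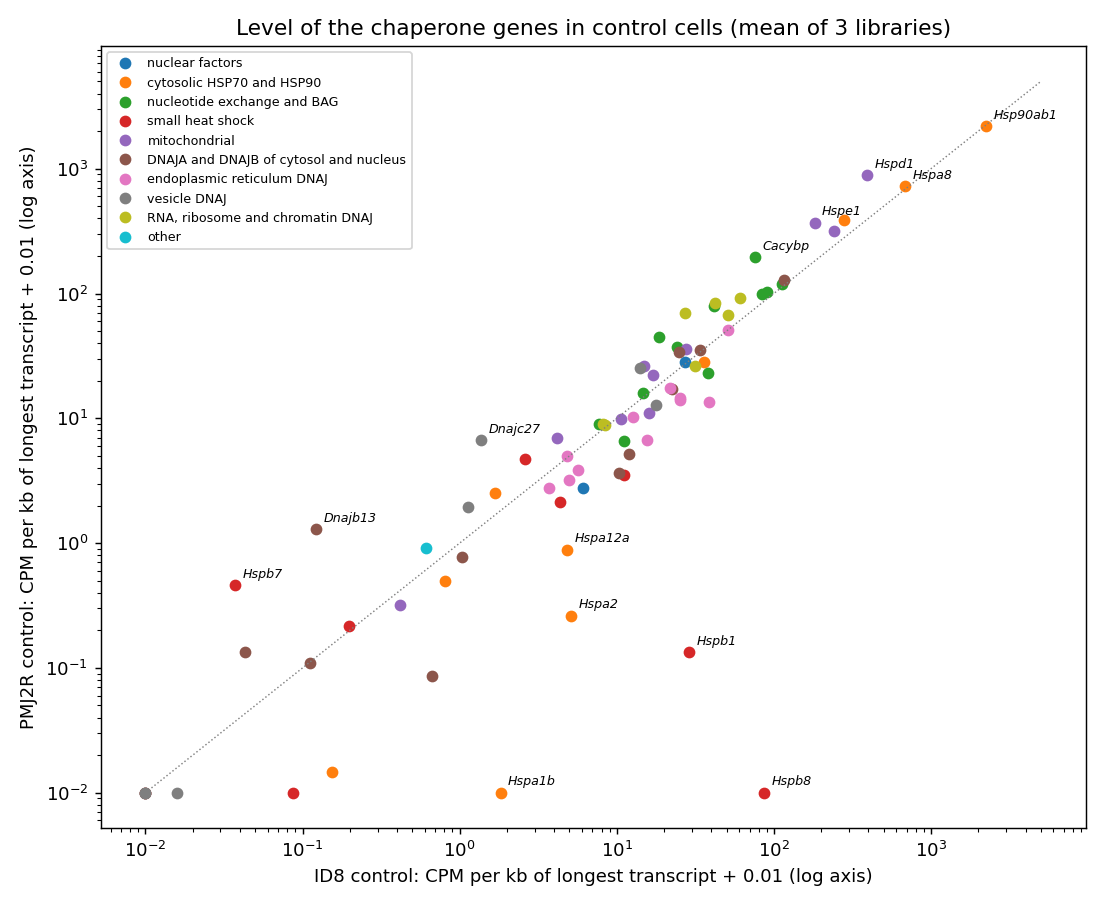
Mean CPM per kilobase of the longest transcript in ID8 control (x axis) and PMJ2R control (y axis), with 0.01 added and log axes, for the chaperone genes coloured by role; the dotted line marks equal levels. Hsp90ab1, Hspa8 and most abundant genes lie near the line, while Hspb8, Hspb1, Hspa1b, Hspa2 and Hspa12a lie far below it and Dnajc27, Dnajb13 and Hspb7 above it.

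Other chaperone genes outside the symbol rule were read from a list of 48. The cytosolic chaperonin TRiC, which folds actin and tubulin, and its feeder prefoldin rose widely: 14 of 15 tested genes rose and 0 fell in ID8 (median 0.95), and 12 rose and 0 fell in PMJ2R (median 0.78). On library totals alone the counts were 12 and 1, and 10 and 3. Among all genes tested with TMM scaling, 38.4% rose and 42.0% fell in ID8 (median -0.07). In PMJ2R 40.1% rose and 43.6% fell (median -0.05). These shares are the background for the co-chaperones and the partners below as well. Pfdn2 rose from 57.3 ± 5.20 to 179 ± 27.2 CPM in ID8 and from 73.5 ± 3.43 to 199 ± 6.12 CPM in PMJ2R, and shares exon sequence with Klhdc9 on the opposite strand. Cct8 rose by 1.11 in ID8 and Cct2 by 0.96 in PMJ2R on the log2 scale. Of 19 tested HSP90 co-chaperones and relatives, 14 rose and 1 fell in ID8, and 8 rose and 5 fell in PMJ2R. St13, which couples HSP70 to HSP90, rose by 1.09 and 0.95, and Nudc by 1.26 in ID8. Ptges3, the p23 co-chaperone, fell in PMJ2R from 260 ± 12.5 to 116 ± 5.91 CPM (-1.17, SE 0.05), and its response differed between the lines (-1.26, SE 0.09, edgeR adjusted p = 3.71e-11). The co-chaperones split 9 and 6 in ID8 and 3 and 13 in PMJ2R on library totals alone. The difference of responses was more positive in PMJ2R for 2 of the 19 co-chaperones and more negative for 12, among them Ahsa1, which activates HSP90 (-1.11, SE 0.10). It was more negative for 7 of the 15 chaperonin and prefoldin genes and more positive for 0, with Cct6a at -0.53 and Pfdn1 at -0.61. Of all genes tested for the difference, 21.8% were more positive in PMJ2R and 30.6% more negative.

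Partners of HSP70 and of J proteins rose in 9 of 13 tested cases and fell in 1 in ID8, and rose in 7 of 11 and fell in 3 in PMJ2R (5 and 5, and 2 and 7, with library totals only). The small heat shock protein gene Cryab rose in ID8 from 4.21 ± 0.309 to 13.8 ± 1.73 CPM (1.71, SE 0.13) and had no count in PMJ2R control. The responses of Sil1, an exchange factor of the endoplasmic reticulum, differed by -1.06 between the lines. Over the 13 partners tested, 4 differences were more positive in PMJ2R and 6 more negative. In PMJ2R the clathrin-uncoating kinase gene Gak rose by 1.04 and the translocon J protein gene Sec63 by 1.03. In control cells 10 co-chaperones were higher in PMJ2R and 6 in ID8, 7 and 4 of the chaperonin and prefoldin genes, and 2 and 7 of the partners. Of all genes tested there, 39.4% were higher in PMJ2R and 42.9% in ID8. Cct3 and Cct8 were higher in PMJ2R by 0.85 and 0.75 on the log2 scale. Serpinh1, the collagen chaperone, read 950 ± 30.6 CPM in ID8 control and had no count in PMJ2R control, while Cdc37, which delivers kinases to HSP90, was higher in PMJ2R (685 ± 29.2 against 267 ± 16.9 CPM) and Fkbp5 higher in ID8 (503 ± 18.5 against 141 ± 12.6 CPM).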

How the data were processed

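Messenger RNA of 12 libraries (2 lines, control and rebastinib, 3 each) was counted per gene by the authors, and the deposited values are raw counts for 55421 Ensembl genes, with no normalization. FastQC, STAR 2.6.1c, featureCounts, DESeq2 and the build GRCm38 are named in the submitters' processing notes. Which annotation was counted, whether strand was used and what was done with multi-mapping reads is not given in the sources used here. Genes with overlapping exons, antisense partners or near copies are therefore uncertain. Symbols and transcript lengths came from GENCODE vM21 (GRCm38), where 181 genes with 0.00261% of counts found no symbol, and promoters from RefSeq (GRCm38.p6).

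Counts were tested with edgeR 4.0.16 in R 4.3.3 on all genes passing its default expression filter (TMM scaling, robust quasi-likelihood test, Benjamini-Hochberg adjustment, threshold 0.05). The fits used the 6 libraries of a line, all 12 for the difference of responses, and the 6 control libraries. The SE is the log2 fold change divided by the square root of F. CPM values carry the TMM factors of the same fit. Library totals ran from 19025504 to 27070556 counts, and floors of 3 counts over a group, on library totals, cover counting error only. Replicate pairs differed by more than sampling noise (chi-square per degree of freedom 1.72 to 23.5), so all were kept. Scripts were tested on simulated counts.

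Named genes follow a rule: 16 core chaperones in the rebastinib comparisons, up to 3 genes with the smallest p per role and rebastinib comparison, 8 for the difference of responses, 6 per direction for control cells (at 10 CPM or more) and 2 per list of other chaperones. Genes called in opposite directions were added after their values were seen, as were single values quoted for contrast. Members, roles and lists were chosen with earlier results of these data known. Alternatives were RLE size factors, library totals only, DESeq2 1.42.0, limma-voom (limma 3.58.1), testing without the expression filter, a 5 CPM minimum on the mean, a block for replicate number, removal of length and GC trends with and without that block, and leaving out each library. Of the list of other chaperones, 1 gene that the rule names is not reported here.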

Additional observations from a re-analysis of the deposited data

Results flagged for a closer look

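The response to rebastinib differed between the lines, by the test of the difference itself, for 9 chaperone genes that were more positive in PMJ2R and 37 that were more negative. Of all 16566 genes tested, 52.4% passed, 21.8% more positive and 30.6% more negative. With RLE size factors the split of the chaperones was 13 and 30. The log2 differences (PMJ2R change minus ID8 change) were -1.53 for Hspa4l, -1.34 for Dnajc11, -1.45 for Dnajb14, -1.18 for Hsf1, -0.94 for Dnajc9, -0.89 for Dnaja1, -1.04 for Dnajb1 and -0.73 for Hsph1. Of the other genes called in opposite directions in the 2 lines, Dnajc17 differed by -1.73, Dnajc2 by -0.67, Dnajc13 by 0.41, Hspa13 by 0.76 and Hspb11 by 1.37. Of the 10 genes with opposite calls, 9 lost or reversed a call in one line or the other under at least 1 alternative. Dnajc2, which belongs to the ribosome-associated complex, rose from 85.5 ± 5.22 to 115 ± 2.12 CPM in ID8 and fell from 220 ± 1.41 to 193 ± 11.3 CPM in PMJ2R. Hspa13 fell from 56.5, 56.6 and 53.1 CPM to 38.8, 40.2 and 40.7 CPM in ID8 and rose from 23.9 ± 1.44 to 30.3 ± 1.23 CPM in PMJ2R. No group had 4 or more samples, so single libraries were not tested for standing apart.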

How the results depend on the processing

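The counts of called chaperones kept within 1.5 times of their value under the alternatives run, except that PMJ2R had 19 higher with library totals only (31 with TMM) and the difference of responses had 14 more positive with DESeq2 (9 with edgeR). Over single libraries left out, the members called ran from 58 to 60 in ID8 (37 to 39 higher, 21 to 21 lower), from 57 to 60 in PMJ2R (30 to 32 and 26 to 28), from 43 to 47 for the difference (8 to 11 and 34 to 37) and from 55 to 59 in control cells (26 to 30 and 28 to 29). Of the called members, 48 of 60 in ID8, 42 of 59 in PMJ2R, 31 of 46 for the difference and 47 of 58 in control cells kept call and direction under every alternative other than the 5 CPM filter, which tested fewer genes. The share of promoters with a heat shock element was 4.69% with 3 units and 21.9% with 2. The cause of the changes of sign below was not tested. With library totals only, the log2 values in ID8 were -0.28 for Dnaja1, -0.20 for Dnajb14, -0.0072 for Dnajc2, -0.048 for Hsf2 and -0.16 for Hsp90aa1, and in PMJ2R -0.34 for Dnajc13, -0.0073 for Dnajc21, -0.22 for Hspa13 and -0.40 for Hsph1. Hsph1 in PMJ2R was -0.051 with no expression filter. With length and GC trends removed, Dnajc13 was 0.14 in ID8 (0.14 with the replicate block) and -0.023 for the difference (-0.024 with the block), and Hsf1 was 0.082 in PMJ2R (0.085 with the block). The replicate block gave 38 higher and 21 lower in ID8, 31 and 28 in PMJ2R, 8 and 35 for the difference, and 29 and 29 in control cells. Libraries of the same number did not deviate together (correlations -0.18 to -0.03 in ID8 and -0.004 to 0.03 in PMJ2R), so the numbers were not read as pairs. Depth limits the genes with few counts, such as Hspa1a, Dnajc22 and Hspb1 in PMJ2R.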
